A study of Mus musculus with 7 samples.

Results

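The genes described here are 10 members of the interleukin-6 (IL-6) signalling pathway in the mouse abdominal aorta: the ligand genes Il6, Il11, Lif and Osm, the receptor genes Il6st, Il6ra, Osmr and Lifr, the transcription factor gene Stat3, and Socs3, which encodes its feedback inhibitor. They were chosen by symbol, and all 10 were found among the 21878 genes of the deposited count and FPKM tables. Each passed the low-count filter, so none was left out of the 14609 genes tested. RNA came from male C57BL/6 mice, with an age of 8 weeks in the labels, given angiotensin II (Ang II, a vasoconstrictor hormone used to provoke aneurysms in the aorta of mice with high blood lipids), over a course of at most 28 days. There were 3 libraries labelled ApoE-/- (ApoE 1 to ApoE 3), which lack the apolipoprotein E gene by label, and 4 double knockout libraries, whose label is ApoE-/-Nur77-/- (DKO 1 to DKO 4) and which by label also lack the nuclear receptor Nur77, encoded by Nr4a1. By label both groups share the Apoe deletion and Ang II and differ in Nur77. Transcripts of both targeted genes were nonetheless read in libraries that lack the gene by label, as given below. No untreated or wild-type aorta was analysed here.

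IL-6 family cytokines signal through gp130, the shared receptor chain encoded by Il6st. IL-6 and IL-11 bind a ligand-specific alpha chain that brings gp130 together as a homodimer, whereas LIF and oncostatin M use gp130 paired with the LIF receptor or the oncostatin M receptor. Engaged gp130 activates JAK kinases, which phosphorylate STAT3. STAT3 then enters the nucleus and induces genes that include Socs3, whose product binds gp130 and the JAKs and ends the signal. In the vessel wall these cytokines come from macrophages, fibroblasts and smooth muscle cells, and IL-6 is among the cytokines made by vascular cells exposed to Ang II.

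The libraries held 19295287 to 21727192 gene counts. Levels are in CPM (counts scaled to the library's TMM-adjusted total), and the floor under a count of 0, 3 counts, was 0.138 to 0.155 CPM (sampling of reads alone). No label ties a library to a mouse of its own, so p-values measure the spread between libraries, which may be technical. Transcripts of both targeted genes were read in libraries that lack the gene by label. Nr4a1 was at 56.4 to 193 CPM in the libraries labelled ApoE-/- and at 46.2 to 92.7 CPM in those labelled double knockout. Its fold change was in the direction of the label but short of the threshold (log2 fold change -0.75, SE 0.42, adjusted p = 0.36, edgeR). Apoe, which both labels give as deleted, was at 184 to 250.3 and at 18.3 to 34.7 CPM without overlap (log2 fold change -2.95, SE 0.23, adjusted p = 0.0227, edgeR). Apoe is thus 1 of the 4 genes that edgeR called between the groups. The sources used here do not state which part of either gene is removed, and every direction below is that of libraries labelled double knockout against libraries labelled ApoE-/-. Of the defining markers of a vessel wall, the 8 smooth muscle genes summed to 8078 to 29249 CPM and none was at 0. The 8 atrial cardiomyocyte markers summed to 1387 CPM in ApoE 3 and 385 CPM in ApoE 2, against 21.4 to 49.2 CPM in the other 5 libraries, and fold changes below are therefore also given with single libraries left out.

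Per length, the pathway was rich in shared receptor and transcription factor and poor in most ligands. On the deposited FPKM scale, Il6st had the highest mean over the 7 libraries (74.5 ± 13.7, SD, n = 7), above 95.9% of the 17649 genes with any FPKM, and its range did not overlap that of Stat3, the next gene (31.3 ± 2.74). Osmr (17.5 ± 5.02) and Socs3 (16.8 ± 5.47) followed, and the ranges of Stat3 and Osmr, and of Osmr and Socs3, overlapped. Il6 (8.04 ± 4.26) and Lifr (7.90 ± 1.36) overlapped each other, and Il6 overlapped Socs3. Il6ra (4.10 ± 1.18) came next, without overlap with Lifr. The other ligands were lowest, with overlapping ranges: Osm at 1.07 ± 0.405, Lif at 0.850 ± 0.515 and Il11 at 0.583 ± 0.256. Among the ligand genes, Il6 thus had the highest FPKM in each of the 7 libraries, 9.02 to 17.5 times that of Il11, 6.73 to 21.4 times that of Lif and 3.60 to 9.80 times that of Osm.

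**Figure D1:**
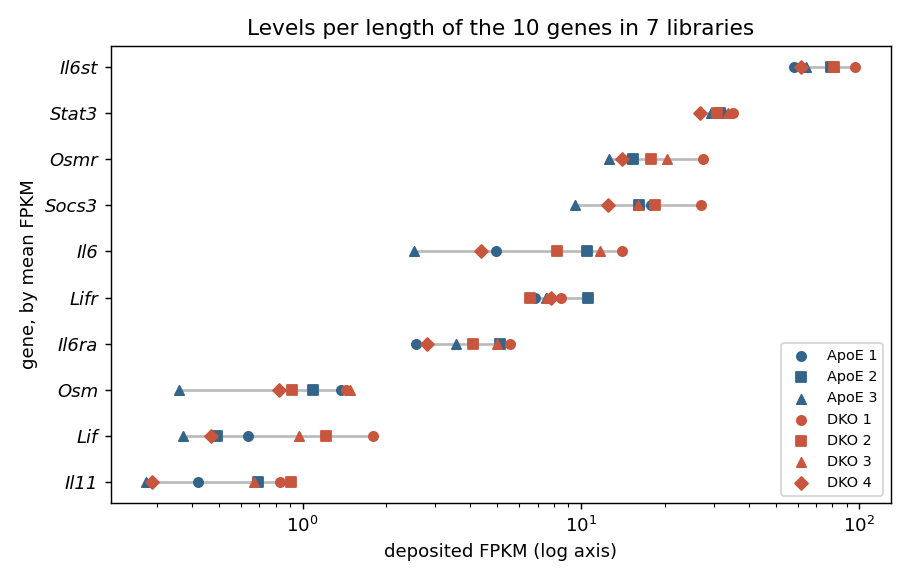
Deposited FPKM (log axis) of each gene in each of the 7 libraries, blue for libraries labelled ApoE-/- and red for those labelled double knockout, with a grey line over the range and genes ordered by mean. Il6st stands above the other 9 genes in every library, and Osm, Lif and Il11 stand below the other 7.

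The FPKM of Il6st exceeded that of Il6ra, Osmr and Lifr in every library, but not that of Il11ra1, the IL-11 alpha chain. Il11ra1, named here after its values were seen, was at 70.4 FPKM in ApoE 1 and 65.7 FPKM in DKO 4. Both lay above Il6st there (58.3 and 61.5 FPKM), and Il11ra1 was below Il6st in the other libraries. The FPKM of Il6st was 15.6 to 22.8 times that of Il6ra, with means of 18.8 ± 3.65 (SD, n = 3) under the ApoE-/- label and 18.8 ± 2.58 (SD, n = 4) under the double knockout label. It was 3.53 to 5.16 times that of Osmr and 7.46 to 12.4 times that of Lifr. Osmr exceeded Lifr in every library, 1.45 to 2.19 times in the libraries labelled ApoE-/- and 1.81 to 3.22 times in those labelled double knockout. These last ranges overlap through ApoE 1 and DKO 4, and the ratios were not tested.

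Il6, the name-giving cytokine gene of the family (chromosome 5, 30013114 to 30019975, GRCm38.p6), was at 6.99, 12.2 and 3.0 CPM in ApoE 1 to ApoE 3 and at 16.3, 9.80, 14.0 and 5.11 CPM in DKO 1 to DKO 4. The groups overlapped: ApoE 2 lay above DKO 2 and DKO 4, and ApoE 3 was the lowest of all. The means were 7.39 ± 4.60 (SD, n = 3) and 11.3 ± 4.94 CPM (SD, n = 4), a log2 fold change of 0.61 (SE 0.53, 95% interval -0.63 to 1.86) short of the threshold (adjusted p = 0.549, edgeR). On the fold scale that interval runs from 0.645 to 3.63. Counts of 55 to 341 per library put the counting error near 6.43% to 8.07% of a group's mean count per library, against SDs of 62.3% and 43.7% of the mean, so the spread between libraries and not depth set the precision. Without ApoE 3 the log2 fold change was 0.24, and without ApoE 2 it was 1.18.

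The stretch before the Il6 start site is shown because its letters include matches to motifs of factors that drive cytokine genes (chr5:30012864-30013113, plus strand, RefSeq, GRCm38.p6). Capitals mark, from the 5′ end, an AP-1 match (TGANTCA), a C/EBP match (TTGCNNAA on the reverse strand) and an NF-kB match, a motif with fixed ends and a free middle.
Il6: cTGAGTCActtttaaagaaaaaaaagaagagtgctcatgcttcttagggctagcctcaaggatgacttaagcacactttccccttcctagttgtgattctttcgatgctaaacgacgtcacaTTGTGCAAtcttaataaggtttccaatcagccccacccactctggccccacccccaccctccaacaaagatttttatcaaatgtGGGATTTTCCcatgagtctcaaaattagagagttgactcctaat
In a search of both strands from 250 bases before to 50 bases after each start site, the AP-1 letters were found in 7.81% of the 32851 promoters in the table, the C/EBP letters in 10.8% and the loosely defined NF-kB letters in 50.8%. Among the 9 genes with an entry (Osm had none used here), the AP-1 letters were in promoters of Il6, Il11, Lif and Osmr, the C/EBP letters in that of Il6 alone, and the NF-kB letters in those of 8, all but Stat3. The 9 genes had 11 promoters, so members are counted by gene while the shares are by promoter. These are matches of letters and not sites of measured binding.

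Lif encodes leukaemia inhibitory factor, which signals through LIF receptor and gp130, and it had the largest fold change of the 10 genes. It was at 5.36, 4.09 and 3.33 CPM in ApoE 1 to ApoE 3 and at 14.8, 9.66, 7.77 and 3.94 CPM in DKO 1 to DKO 4 (chromosome 11, 4257568 to 4272514). DKO 1, DKO 2 and DKO 3 lay above all 3 libraries labelled ApoE-/-, and DKO 4 lay below ApoE 1 and ApoE 2. The means were 4.26 ± 1.02 (SD, n = 3) and 9.04 ± 4.51 CPM (SD, n = 4), and the log2 fold change was 1.08 (SE 0.43, 95% interval 0.07 to 2.09). It did not pass over all genes (edgeR, adjusted p = 0.226, unadjusted p = 0.0385), nor with DESeq2 (adjusted p = 0.0992) or limma voom (adjusted p = 0.115), and it was 0.76 without DKO 1. The AP-1 match lies near the 5′ end of its promoter entry, in capitals in the stretch that holds it (chr11:4257328-4257427, plus strand, RefSeq, GRCm38.p6).
Lif: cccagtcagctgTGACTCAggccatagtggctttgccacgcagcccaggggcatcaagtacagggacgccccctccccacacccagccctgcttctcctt

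Il11 and Osm were read at low counts in every library. Il11, whose product acts on fibroblasts and smooth muscle through its own alpha receptor, was at 1.49, 1.84 and 0.709 CPM in ApoE 1 to ApoE 3 and at 2.15, 2.20, 1.95 and 0.920 CPM in DKO 1 to DKO 4 (chromosome 7, 4772373 to 4782907). DKO 1 to DKO 3 lay above the libraries labelled ApoE-/-, while DKO 4 lay below ApoE 1 and ApoE 2. Its log2 fold change of 0.42 (SE 0.45, 95% interval -0.62 to 1.46) did not pass (adjusted p = 0.626, edgeR), and it was 0.12 without ApoE 3 and 0.71 without ApoE 2. From 13 to 47 counts per library, the counting error was 16.1% to 19.01% of a mean, against SDs between libraries of 33.3% and 43.0%.

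Osm encodes oncostatin M, a product mainly of macrophages, neutrophils and T cells. It was at 3.27, 2.53 and 0.927 CPM in ApoE 1 to ApoE 3 and at 3.02, 2.20, 3.33 and 1.94 CPM in DKO 1 to DKO 4, from 17 to 75 counts (chromosome 11, 4236785 to 4241026). The groups overlapped, with ApoE 1 second to DKO 3 and ApoE 3 the lowest. Its log2 fold change was 0.22 (SE 0.44, 95% interval -0.81 to 1.26, edgeR adjusted p = 0.821), and the sign turned without ApoE 3 (-0.14), while it was 0.60 without ApoE 1.

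**Figure D2:**
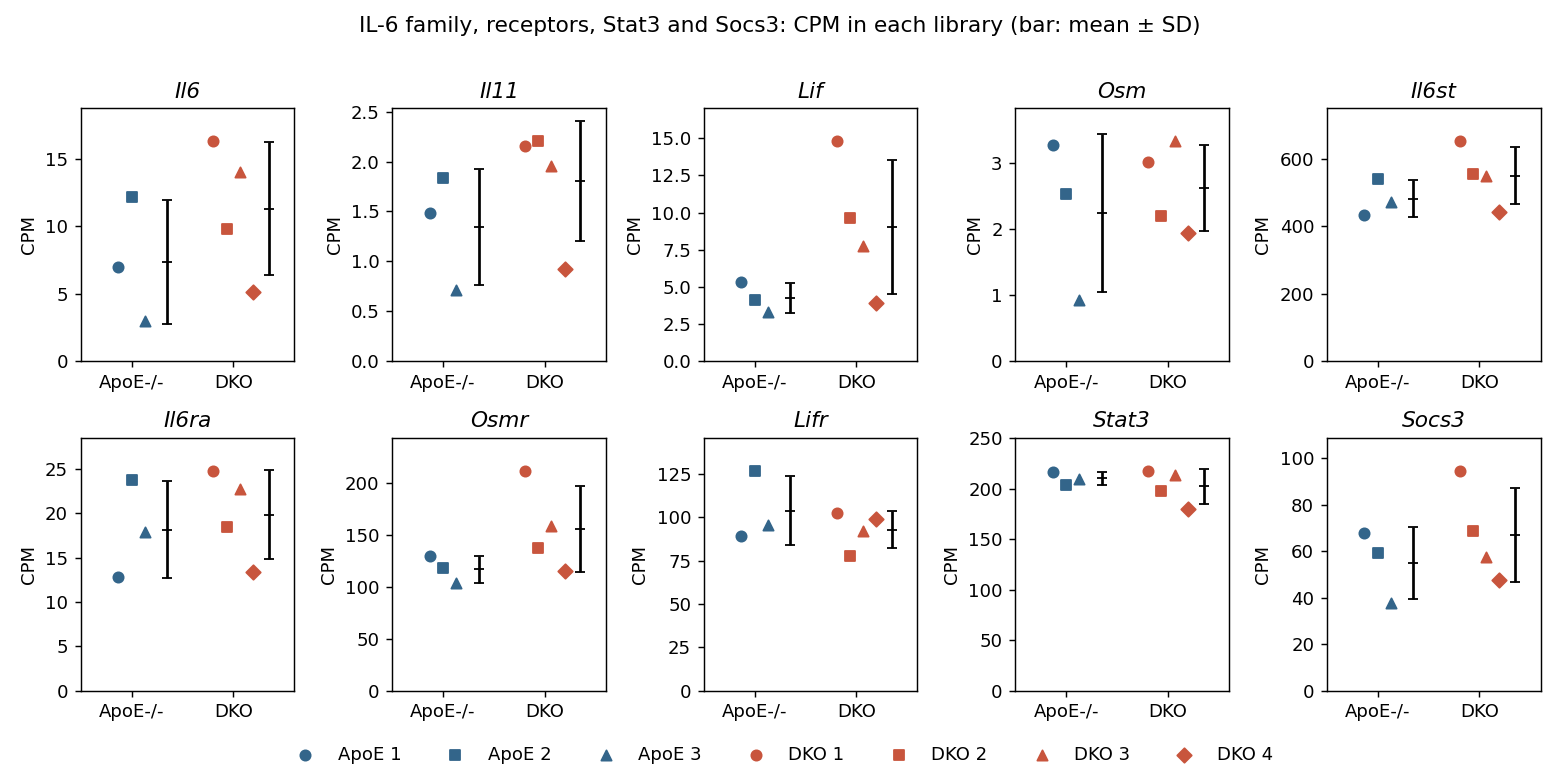
CPM of each gene in each library (y axes from 0), blue for the 3 libraries labelled ApoE-/- and red for the 4 labelled double knockout, with bars for mean ± SD. The groups overlap for all 10 genes, and DKO 1 is the highest of the 7 libraries for 7 of them.

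Among the receptors, Osmr had the largest fold change. Osmr encodes the oncostatin M receptor, which is found on mesenchymal cells such as fibroblasts and smooth muscle. It was at 129, 118 and 104 CPM in ApoE 1 to ApoE 3 and at 212, 138, 159 and 116 CPM in DKO 1 to DKO 4 (chromosome 15, 6813568 to 6874968). DKO 1 to DKO 3 lay above the libraries labelled ApoE-/-, and DKO 4 lay below ApoE 1 and ApoE 2. The means were 117 ± 12.8 (SD, n = 3) and 156 ± 41.3 CPM (SD, n = 4), with a log2 fold change of 0.41 (SE 0.21, 95% interval -0.06 to 0.89) short of the threshold (adjusted p = 0.308, edgeR). Without DKO 1 it was 0.25. Counts of 1904 to 4427 leave little counting error, 1.74% to 2.06% of a mean.

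Il6st (chromosome 13, 112464070 to 112506860) was at 433, 541 and 473 CPM in ApoE 1 to ApoE 3 and at 653, 557, 550.1 and 444 CPM in DKO 1 to DKO 4. DKO 1, DKO 2 and DKO 3 were again above the libraries labelled ApoE-/-, and DKO 4 was below ApoE 2 and ApoE 3. Its log2 fold change was 0.19 (SE 0.15, 95% interval -0.16 to 0.55, edgeR adjusted p = 0.506), an interval that reaches from 0.894-fold to 1.46-fold. It was 0.12 without DKO 1 or without ApoE 1, and 0.28 without ApoE 2.

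Il6ra, the IL-6-binding chain, which leukocytes carry and can shed (chromosome 3, 89869324 to 89913196), was at 12.8, 23.7 and 17.9 CPM in ApoE 1 to ApoE 3 and at 24.8, 18.5, 22.8 and 13.4 CPM in DKO 1 to DKO 4. The libraries of both groups were interleaved over the whole range, with a log2 fold change of 0.13 (SE 0.27, 95% interval -0.50 to 0.76, edgeR adjusted p = 0.827) and the opposite sign without ApoE 1 (-0.06), and it was 0.37 without ApoE 2. An antisense gene overlaps Il6ra in GENCODE M21, and whether counting used strand is not given in the sources used here.

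Lifr, the LIF receptor chain (chromosome 15, 7090610 to 7197489), had a negative fold change, unlike the other receptor genes. It was at 89.5, 127 and 95.3 CPM in ApoE 1 to ApoE 3 and at 102, 77.9, 92.1 and 99.2 CPM in DKO 1 to DKO 4. ApoE 2 was the highest and DKO 2 the lowest, and the rest were mixed. The log2 fold change was -0.16 (SE 0.15, 95% interval -0.51 to 0.19, edgeR adjusted p = 0.580), and 0.0087 without ApoE 2.

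Stat3 varied least. It was at 217, 204 and 209.7 CPM in ApoE 1 to ApoE 3 and at 218, 198, 213 and 179.98 CPM in DKO 1 to DKO 4 (chromosome 11, 100886806 to 100939594). The groups overlapped, with DKO 4 the lowest, and the highest library was 1.21 times the lowest. The log2 fold change was -0.06 (SE 0.09, 95% interval -0.27 to 0.16, edgeR adjusted p = 0.781), so a difference beyond 1.12-fold upward or below 0.827-fold lies outside the interval. Stat3 overlaps Stat5a on the opposite strand in GENCODE M21, and Stat5a was at 29.2 to 51.2 CPM. The RefSeq spans of the 2 genes do not overlap, since that of Stat5a ends at 100885169. Transcript levels do not measure the phosphorylated protein.

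Socs3 was at 67.7, 59.3 and 37.8 CPM in ApoE 1 to ApoE 3 and at 94.7, 68.8, 57.5 and 47.6 CPM in DKO 1 to DKO 4 (chromosome 11, 117966079 to 117970336). DKO 1 was the highest and ApoE 3 the lowest, while DKO 3 and DKO 4 lay below ApoE 1 and ApoE 2. The log2 fold change was 0.29 (SE 0.28, 95% interval -0.36 to 0.94, edgeR adjusted p = 0.588). It was 0.08 without ApoE 3 and 0.47 without ApoE 1. Per length, Stat3 exceeded Socs3 in every library, 1.79 to 3.09 times in the libraries labelled ApoE-/- and 1.30 to 2.15 times in those labelled double knockout. Socs3 was the 1 gene of the 9 with an entry whose promoter held the STAT letters TTCNNNGAA, which read the same on both strands and were in 8.30% of all promoters. They are in capitals in a short stretch before the start site of the promoter entry (chr11:117969503-117969530, minus strand, RefSeq, GRCm38.p6). The stretch and that start site lie within the span of Socs3 given above, so the match is not upstream of the whole gene.
Socs3: gaaaccagccTTCTTAGAAgggaggggg

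None of the 10 genes passed the test between the labelled groups. Over all genes the share called was 0.0% higher and 0.0274% lower (edgeR quasi-likelihood test, adjusted p under 0.05), so a count of 0 of 10 is what that background gives. At an unadjusted p under 0.05, 1 of 10 was higher (Lif) and 0 were lower, beside 8.0% and 11.8% of all genes (19.8% in either direction). DESeq2 called 0 of the 10, with 7.36% of all genes called in either direction, and limma voom called 0 of the 10, with 16.2% of all genes called. The ranges of the groups overlapped for all 10, whereas they did not overlap for 16.3% of all genes (7.08% higher and 9.24% lower). Of the 10 fold changes, 8 were positive, with a median of 0.26 against -0.02 for all genes tested.

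**Figure D3:**
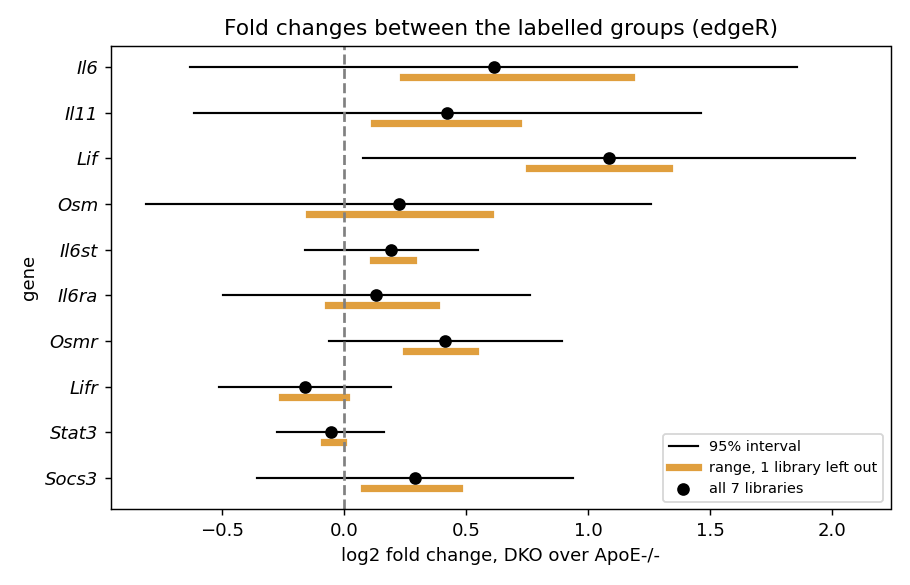
Log2 fold change of libraries labelled double knockout over libraries labelled ApoE-/- (x axis) for each gene, with its 95% interval (black line) and the range when 1 library is left out (orange bar). Lif is at 1.08 with an interval of 0.07 to 2.09, and the intervals of the other 9 genes include 0.

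The libraries ranked alike across many of the 10 genes. Averaged over the 10, their order followed the labels except for DKO 4, and the parts of library and label in it were not tested. DKO 1 lay above the gene's own mean of log2 CPM for 10 of 10 genes, against 45.2% of all genes, and was the highest of all 7 libraries for 7 (Il6, Lif, Il6st, Il6ra, Osmr, Stat3 and Socs3), where it was highest for 17.97% of all genes. ApoE 3 was the lowest for 6 (Il6, Il11, Lif, Osm, Osmr and Socs3), against 20.8% of all genes. DKO 4 was the lowest of its group for 9 of 10 genes, Lifr being the exception, against 32.2% of all genes, and ApoE 3 was the lowest of its group for 6, against 35.4%. Averaged over the 10 genes, DKO 1 deviated by 0.53, DKO 3 by 0.25, DKO 2 by 0.13, ApoE 2 by 0.09, ApoE 1 by -0.07, DKO 4 by -0.36 and ApoE 3 by -0.57 log2 units. Without ApoE 3 and DKO 1, the lowest and the highest library of that order, 5 of the 10 fold changes were positive. Il6 was then at 0.0099 and Lif at 0.59. Leaving out both ends of the order lowers the average fold change by construction, so these values do not test it. Since the 10 genes share their libraries, they are not separate replicates of this order.

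**Figure D4:**
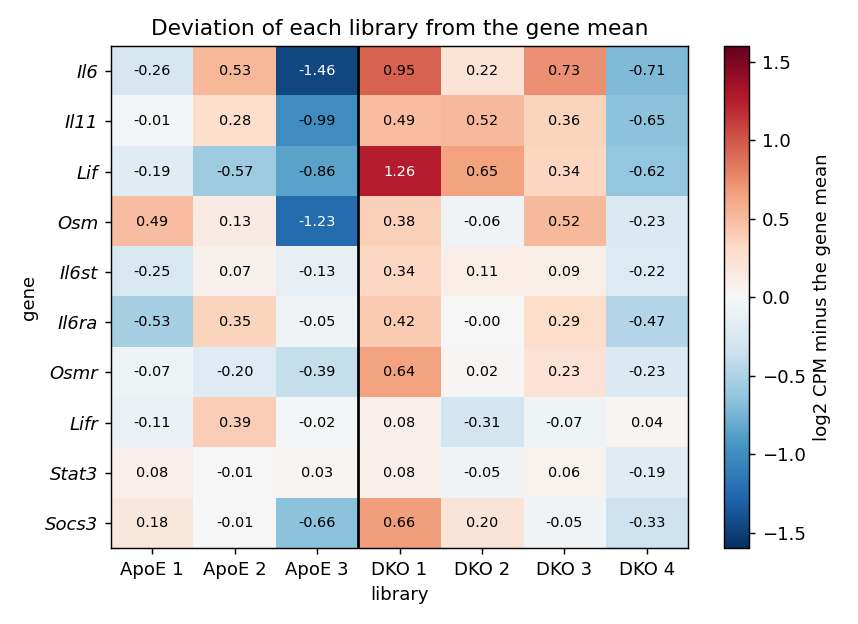
Log2 CPM of each gene (rows) in each library (columns) minus that gene's mean over the 7 libraries, red above and blue below, with a line between the labelled groups. DKO 1 is above the mean in all 10 rows, and ApoE 3 reaches -1.46 for Il6 and -1.23 for Osm.

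Markers of several cell types varied over the same libraries. The 10 macrophage markers summed to 2462 CPM in ApoE 3 and 2710.1 CPM in DKO 4, the lowest levels, and to 5306 CPM in DKO 3 and 4547 CPM in DKO 1, the highest (2462 to 3652 CPM in the libraries labelled ApoE-/- and 2710.1 to 5306 CPM in those labelled double knockout). The 8 neutrophil markers were at 146 CPM in DKO 1 and at 23.1 CPM in ApoE 3, with ranges of 23.1 to 65.3 and 34.2 to 146 CPM. The T and NK cell markers in the table (7 of 8) ranged from 13.7 to 35.8 and from 26.3 to 67.0 CPM. Smooth muscle markers ran the other way, lowest in DKO 1 (8078 CPM) and highest in DKO 4 (29249 CPM). The 8 fibroblast markers were lowest in DKO 4 (10281 CPM) and highest in DKO 2 (19812 CPM). At an unadjusted p under 0.05 (edgeR), 1 fibroblast marker was higher and 4 were lower, beside 8.0% and 11.8% of all genes. White and brown adipocyte markers were highest in ApoE 3 (8945 and 1679 CPM). No gene of these cell type lists passed adjusted over all genes (edgeR). The part of these cells in the levels of the 10 genes was not tested. In bulk tissue, fewer cells of a type and less RNA per cell cannot be told apart.

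The genes whose levels most resembled those of Il6 and of Socs3 were taken by Pearson's r of log2 CPM over the 7 libraries, among 13246 genes with a mean log2 CPM of at least 1, as a description only. For Il6 they were Gpr65, a proton-sensing receptor of leukocytes (r = 0.989), Chaf1b, a chromatin assembly subunit (0.988), Orc2, of the replication origin complex (0.985), and Cd33, a myeloid surface receptor (0.985). Gpr65 was at 10.4, 15.6 and 5.67 CPM in ApoE 1 to ApoE 3 and at 20.2, 14.1, 21.6 and 8.59 CPM in DKO 1 to DKO 4. For Socs3 they were Asxl1, a chromatin regulator (0.988), Dnajb9, an endoplasmic reticulum chaperone (0.978), Cda, cytidine deaminase (0.976), and Minpp1, an inositol phosphate phosphatase (0.976). Picking the best of so many genes over 7 points gives high values of r by construction.

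The rest of the gp130 ligand and receptor genes gave no call with edgeR. Of 8 other ligand genes, 5 were tested, with 0 called (median log2 fold change 0.02). At an unadjusted p under 0.05 there were 0, beside 19.8% of all genes. Ctf2 was at 0 in all libraries, and Il27 and Il31 were too low to test. Ctf1, cardiotrophin 1, was at 3.77 to 5.40 and at 2.84 to 5.37 CPM, and Cntf at 1.36 to 2.71 and at 1.01 to 2.10 CPM. In the list of 6 receptor and shedding genes, 0 were called by edgeR. At an unadjusted p under 0.05, 2 were higher and 1 lower, beside 8.0% and 11.8% of all genes. Adam17, the protease that sheds the IL-6 receptor, was at 60.4, 74.1 and 63.8 CPM against 104, 90.9, 97.01 and 72.9 CPM. Its ranges overlapped only by DKO 4 and ApoE 2. The log2 fold change of 0.47 (SE 0.14) had an adjusted p of 0.165 with edgeR, 0.0448 with DESeq2 and 0.0258 with limma voom. Adam10, a related sheddase, had a log2 fold change of 0.55 (SE 0.22, edgeR adjusted p = 0.225). Cntfr, the alpha receptor of ciliary neurotrophic factor, had one of -0.93 (SE 0.36, edgeR adjusted p = 0.216). DESeq2 called neither (adjusted p = 0.109 and 0.117), with 7.36% of all genes called. Limma voom called both (adjusted p = 0.0498 and 0.0305), with 16.2% of all genes called.

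JAK kinases, other STATs and other inhibitors likewise had 0 calls with edgeR. Of 14 JAK and STAT signalling genes, 7 were positive and 7 negative, and 0 were at an unadjusted p under 0.05, beside 19.8% of all genes. Jak1, a kinase bound to gp130, was at 170.5, 185 and 162 CPM in the libraries labelled ApoE-/- and at 242, 218, 232 and 159 CPM in those labelled double knockout, DKO 4 being the lowest of all. Its log2 fold change was 0.30 (SE 0.15, adjusted p = 0.319 by edgeR). Stat4 had 0.71 (SE 0.37) and Stat5a -0.29 (SE 0.16). Of 15 other feedback genes (median 0.06), 1 was higher and 2 were lower at an unadjusted p under 0.05 (edgeR), beside 8.0% and 11.8% of all genes. Socs2, which restrains growth hormone signalling, was at 40.8, 33.0 and 43.8 CPM against 32.7, 30.6, 25.8 and 27.7 CPM, without overlap but by a narrow margin. Its log2 fold change was -0.42 (SE 0.13, adjusted p = 0.167 by edgeR). Dusp22, a phosphatase, had -0.25 (SE 0.10), and Ptpn1, a tyrosine phosphatase that acts on JAK2, had 0.40 (SE 0.17).

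Genes that STAT3 and related factors are known to induce went in both directions, and those with the smallest p were lower in the libraries labelled double knockout. Of 36 tested in the list of STAT3 targets and acute phase genes, 18 were positive and 18 negative (median -0.02, as for all genes tested), and 0 were called by edgeR. At an unadjusted p under 0.05, 4 were higher and 8 lower, beside 8.0% and 11.8% of all genes, and the ranges did not overlap for 9 of 36, beside 16.3% of all genes. Hp, which encodes the haemoglobin-binding acute phase protein haptoglobin, was at 1800.4, 2324 and 2365 CPM against 1292, 842 and 834 CPM and, in DKO 4, 1257 CPM. All 4 libraries labelled double knockout lay below the others, a log2 difference of -1.03 (SE 0.21, edgeR, adjusted p = 0.132). Lrg1, a secreted glycoprotein, had -0.78 (SE 0.16, adjusted p = 0.129) and Steap4, a metalloreductase, -0.53 (SE 0.11, adjusted p = 0.132), both without overlap.

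Other tools called part of this list. DESeq2 called 2 higher (Hif1a and Il1r1) and 6 lower (Cebpb, Cebpd, Hk2, Hp, Lrg1 and Steap4), beside 2.95% and 4.41% of all genes, and limma voom called 3 higher and 8 lower, beside 6.17% and 10%. Those of the names here other than Hp, Lrg1 and Steap4 were chosen after their values were seen. Cebpb, a transcription factor of the acute phase and of adipocytes, was at 142 to 180 CPM against 95.6 to 133 CPM, and Cebpd, of the same family, at 91.5 to 134 against 51.0 to 83.3 CPM. Hif1a, a subunit of the hypoxia-induced transcription factor, was at 138 to 144 CPM against 168 to 258 CPM (log2 fold change 0.68, SE 0.15), and Il1r1, the interleukin-1 receptor, at 72.9 to 98.2 against 107 to 145 CPM (0.62, SE 0.14). Both had an adjusted p of 0.146 with edgeR. None of these 4 genes overlapped between the groups, where 16.3% of all genes did not. Since the 4 were chosen with their values seen, that count is no result about the list. The 8 white adipocyte markers were lower in the same libraries as Cebpb and Cebpd, summing to 5775 to 8945 CPM against 2772 to 4163 CPM without overlap. Their part in the levels of Hp, Lrg1, Steap4, Cebpb and Cebpd was not tested.

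Among genes that induce or restrain Il6, 13 of 14 were tested and 0 were called by edgeR (median 0.20). At an unadjusted p under 0.05, 1 was higher and 1 lower, beside 8.0% and 11.8% of all genes. Il1b, the interleukin-1 beta gene and a strong inducer of Il6, was at 6.50, 6.76 and 3.11 CPM in ApoE 1 to ApoE 3 and at 14.7, 11.8, 9.81 and 5.37 CPM in DKO 1 to DKO 4. As for Lif, DKO 1 to DKO 3 lay above the libraries labelled ApoE-/- and DKO 4 lay among them (log2 fold change 0.93, SE 0.40, edgeR adjusted p = 0.255). Nfkbia, which encodes the NF-kB inhibitor, was at 188, 119 and 101 CPM against 90.1, 66.1, 90.8 and 64.5 CPM, without overlap. Its log2 fold change was -0.81 (SE 0.24), with an adjusted p of 0.162 by edgeR, 0.0361 by DESeq2 and 0.0375 by limma voom. Tgfb1 had a log2 fold change of 0.48 (SE 0.17, edgeR adjusted p = 0.196).

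**Figure D5:**
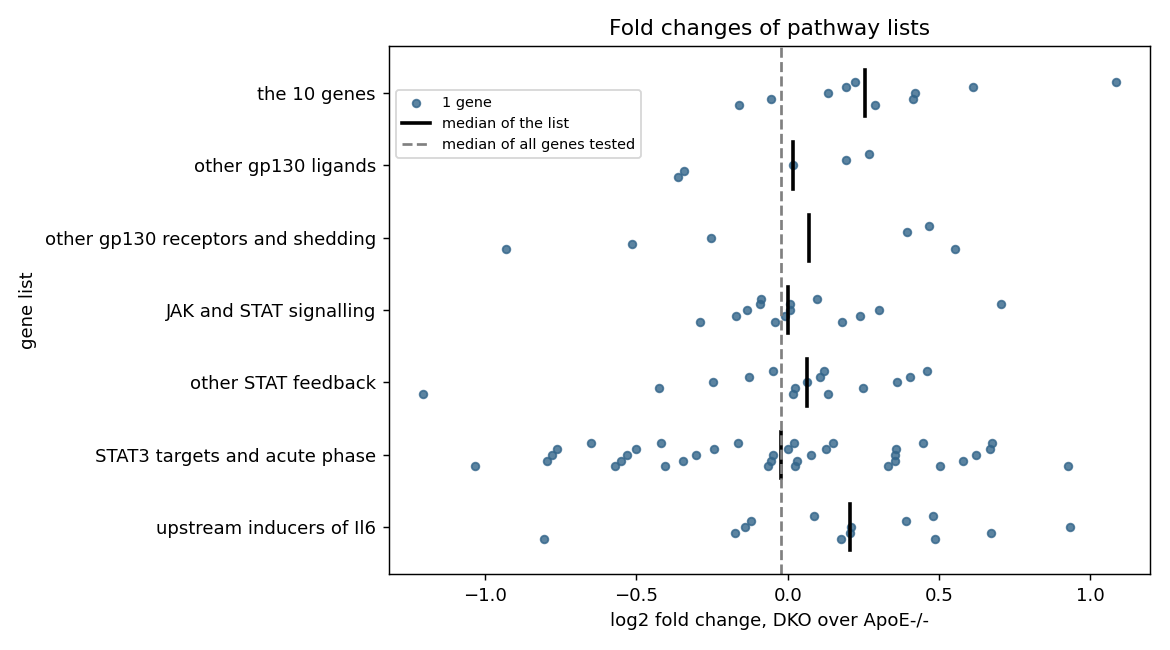
Log2 fold change of libraries labelled double knockout over libraries labelled ApoE-/- (x axis) for each tested gene (point) of the 10 genes and of 6 related lists (rows), with the list's median (black bar) and the median of all genes tested (dashed line, -0.02). The 10 genes have a median of 0.26, and the 36 STAT3 target and acute phase genes spread to both sides of 0.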

How the data were processed

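Polyadenylated RNA of the abdominal aorta was made into strand-marking TruSeq libraries, per the labels' protocols. The submitters' processing notes list Trimmomatic, HISAT2, HTSeq, Cufflinks, DESeq and GRCm38.p6, without versions or roles. Not given in the sources used here are the annotation, the use of strand in counting and the filters on alignments. The deposited gene counts are whole numbers that the authors did not normalise, and the deposited FPKM values were scaled by the authors for depth and length. Genotype and number in a column's name gave its sample.

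Counts were filtered (filterByExpr, minimum count 10), normalised by TMM and tested over all genes with edgeR 4.0.16 (quasi-likelihood, Benjamini-Hochberg, threshold 0.05, R 4.3.3), 3 libraries against 4. Standard errors were derived from the log2 fold change and its F statistic. Levels within a gene are CPM, and levels between genes are FPKM. Alternatives were RLE, DESeq2 1.42.0, limma 3.58.1 (voom with quality weights, and log2 FPKM with pseudocounts of 1 and 0.1), other filters, a replicate block and libraries left out. The fit was tested on simulated data. Named genes were the 10 genes, Nr4a1 and Apoe, the 3 with the smallest p of each related list, and the 4 most like Il6 and Socs3; 1 gene this rule names is not reported here. The genes and lists were chosen with earlier results of these data known.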

Additional observations from a re-analysis of the deposited data

How the results depend on the processing

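None of the 10 genes was called under any of the 17 alternatives in which it had a value. The sign turned for Osm without ApoE 3 and DKO 1 together (-0.22), Il6ra (-0.0018) and Socs3 (-0.13) under the same setting, and Stat3 with log2(FPKM + 1) (0.021), log2(FPKM + 0.1) (0.022) and unfiltered log2(FPKM + 1) (0.021). With 1 library left out the fold changes ran from -0.14 to 0.60 for Osm, -0.065 to 0.37 for Il6ra and -0.26 to 0.0087 for Lifr. Il11 had no value with a minimum count of 50 or filtered FPKM, nor Lif with filtered FPKM. Over all genes, DESeq2 called 433 higher and 648 lower and limma voom 902 and 1467; log2 FPKM called 1 higher with either pseudocount, and unfiltered FPKM 0 lower. Without ApoE 3 and DKO 1 together 2 were higher and 0 lower, and with 1 library left out 0 to 4 higher (4 without DKO 1) and 0 to 2 lower. Of 6 receptor and shedding genes, DESeq2 called 1 and limma voom 3, and of 36 STAT3 target genes 8 and 11. Of 13 inducers they called 1 (Nfkbia) and 2 (Nfkbia and Tgfb1). Limma voom called 1 of 14 JAK and STAT genes (Jak1, higher) and 2 of 15 feedback genes (Ptpn1 higher, Socs2 lower), where DESeq2 called 0. The shares called over all genes were 7.36% with DESeq2 and 16.2% with limma voom. Of same-numbered libraries, those numbered 2 deviated together (r 0.70) and those numbered 1 and 3 did not (r -0.39 and 0.0036), nor did each library correlate best with its own number; with the replicate number as a block, 0 genes were lower in place of 4. Il11 and Osm had the fewest counts, 13 to 75 per library, with counting error below the spread between libraries.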
